A study of Homo sapiens with 18 samples.

Results

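The mitochondrial ribosome makes the few proteins encoded by mitochondrial DNA, which are core subunits of the respiratory chain and ATP synthase. Its RNA comes from mitochondrial DNA, whereas all of its proteins are encoded in the nucleus, made in the cytosol and imported. Some of these proteins have counterparts in bacterial ribosomes and others are found only in mitochondria. The large subunit joins amino acids and the small subunit reads the messenger RNA, and loss of either stops mitochondrial translation.

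The nuclear genes for these proteins were examined here in HAP1 cells, an established human line with a nearly haploid genome that goes back to the leukaemia line KBM-7. Members were all genes whose symbol was MRPL or MRPS followed by a number and at most a letter from A to C, plus DAP3, PTCD3, GADD45GIP1, AURKAIP1 and CHCHD1, whose proteins sit in the ribosome under other names. This gave 83 genes of the 59251 in the count tables, with 52 assigned to the large subunit, 30 to the small subunit and 1, MRPS36, to neither, because its product is known as a subunit of the 2-oxoglutarate dehydrogenase complex. All 83 passed the filter on low counts. Of the subunit genes, 46 have bacterial counterparts and 36 are specific to mitochondria.

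The study removed SARS2, the mitochondrial synthetase that charges transfer RNA with serine. Its 18 libraries form 6 groups of 3. Unmodified parental HAP1 cells were grown either with doxycycline at 15 ng/mL or without it. The other 4 groups were SARS2-deleted cells carrying a SARS2-1xFLAG transgene, kept in the same dose of doxycycline until it was removed. This deleted line was sampled with doxycycline and labelled 3, 6 or 9 days after its removal. The sources used here give neither the promoter of the transgene nor the kind of deletion, nor whether the line is 1 clone. Library totals ran from 66850705 to 111123481 counts, of which the members took 0.52% to 0.72%.

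SARS2 itself did not follow the labels. Levels are given in CPM, counts scaled to a common library size after each library total was multiplied by its TMM factor. In the deleted line SARS2 was at 24.2 ± 0.923 CPM (SD, n = 3) under doxycycline, and without it at 31.6 ± 0.986 (day 3), 24.7 ± 1.30 (day 6) and 41.8 ± 7.16 (day 9). The parental line had 44.3 ± 1.67 CPM with and 39.9 ± 3.03 without doxycycline. Transgene and endogenous reads share the gene name, so depletion could not be read from these counts, and groups are called below by their labels. None of 11 haematopoietic marker genes reached a mean of 1 CPM, and 4 of them had no count. Of 8 mesenchymal markers 4 reached it, and their summed level was 639.4 to 712.6 CPM in deleted cells under doxycycline, 709.7 to 733.4 (day 3), 631.6 to 657.3 (day 6) and 801.5 to 1043 (day 9), with 500 to 509.8 in parental cells with and 431.6 to 463.9 without doxycycline. Of 5 epithelial markers 2 reached it, with sums of 32.55 to 36.98, 36.9 to 39.5, 34.36 to 47.75, 55.47 to 63.07, 36.3 to 37.22 and 26.86 to 32.96 CPM in the same order of groups. NEAT1, a long noncoding RNA kept in the nucleus, ranged over 6.65 to 7.22 CPM in deleted cells under doxycycline, 4.53 to 5.75 (day 3), 13.04 to 18.17 (day 6) and 2.001 to 3.994 (day 9). In parental cells it ranged over 3.70 to 4.28 with and 12.6 to 16.2 without doxycycline. The part of these genes in the results below was not tested.

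Members differed widely in level. Per kilobase of exon, in the deleted line with doxycycline, the median member was at 37.9 CPM, with 40.5 for the large and 37.1 for the small subunit. MRPS34, a mitochondria-specific small subunit protein, was highest at 262 ± 13.8 CPM per kilobase, followed by AURKAIP1, also of the small subunit, at 172 ± 10.8 and MRPL3 of the large subunit at 157 ± 9.55. The fourth, MRPL41, was at 154 ± 12.9 and did not differ from MRPL3 beyond its spread. The lowest were MRPS24 at 2.29 ± 0.367, MRPL42 at 6.48 ± 0.115 and MRPS33 at 7.61 ± 0.605 CPM per kilobase. MRPS24 shares 606 of its 667 exon bases with another annotated gene on the same strand, so its counts are uncertain. MRPL42 shares 282 of 15665 exon bases in this way, and its level per kilobase was divided by that long annotated length. In all, 28 members have exons that overlap another gene, 5 on the same strand and 23 on the opposite strand, among them MRPL1, MRPS2, MRPS7 and DAP3. The others on the same strand are MRPL24 (610 of 2501 exon bases), MRPS6 (168 of 931) and MRPS28 (614 of 838), whose counts are uncertain too. Pseudogenes named after members were few in reads. The 106 of them held 0.128% to 0.342% of the reads given to members and pseudogenes together.

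Because many members moved together, their promoters were read from the RefSeq table for GRCh38.p14, which held 91 promoters of 74 members, each from 250 bases before to 50 after the transcript start. Exact matches were counted on both strands for the core letters of 6 motifs. CCGGAAG, a core bound by ETS factors, was present for 41.9% of these members against 12.2% of all 27305 genes in the table. AAGATGGC, a core of YY1 that often spans the start codon, was present for 31.1% against 3.5%. The other motifs were nearer to the background. GCATGCGC (NRF1) was found for 8.1% of members and 3.7% of all genes, CACGTG (E-box) for 12.2% and 8.8%, and TGACGTCA (cyclic AMP response element) for 1.4% and 2.2%. TGATGCAA (composite site of ATF4) was found for 0 of 74 members and 1.1% of all genes. All members passed the filter on low counts, whereas the 27305 genes were not restricted to those that did. The shares among expressed genes alone were not counted. A match says only that these letters lie in the window. Of 46 ETS matches, 31 began within 100 bases before the start, and 17 of 26 YY1 matches began in the first 30 transcribed bases. Matches were counted per promoter, so a site in overlapping promoters of 1 gene, as in MRPL47, MRPS12 and MRPS22, was counted for each.

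Shown are stretches from 100 bases before to 30 bases after the transcript start, 5′ to 3′ on the gene's strand, with matches in capitals, for members on which the results below turn. MRPL20 (chr1:1407264-1407393, minus strand) holds a pair of ETS cores and a YY1 core. MRPL27 (chr17:50373155-50373284, minus strand) and MRPL53 (chr2:74472651-74472780, minus strand) hold a pair of ETS cores each. MRPS12 (chr19:38930854-38930983, plus strand), which starts next to SARS2 and runs away from it, holds an ETS core, and its full window a YY1 core beginning 222 bases before the start.
MRPL20: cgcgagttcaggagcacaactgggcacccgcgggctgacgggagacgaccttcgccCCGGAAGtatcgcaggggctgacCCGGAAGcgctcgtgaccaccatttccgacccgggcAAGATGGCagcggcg
MRPL27: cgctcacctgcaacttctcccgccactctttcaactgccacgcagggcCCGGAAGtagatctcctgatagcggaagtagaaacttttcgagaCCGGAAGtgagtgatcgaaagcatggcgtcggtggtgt
MRPL53: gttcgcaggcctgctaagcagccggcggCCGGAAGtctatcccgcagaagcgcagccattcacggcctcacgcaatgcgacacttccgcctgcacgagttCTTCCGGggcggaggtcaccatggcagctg
MRPS12: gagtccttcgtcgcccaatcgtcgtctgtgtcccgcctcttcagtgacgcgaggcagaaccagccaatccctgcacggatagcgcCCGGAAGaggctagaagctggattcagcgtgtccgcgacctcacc
MRPS7 (chr17:75261779-75261908, plus strand), MRPL46 (chr15:88467359-88467488, minus strand) and PTCD3 (chr2:86106135-86106264, plus strand) hold a YY1 core after the start. MRPL1 (chr4:77862730-77862859, plus strand), which changed most in several comparisons, holds none of the 6.
MRPS7: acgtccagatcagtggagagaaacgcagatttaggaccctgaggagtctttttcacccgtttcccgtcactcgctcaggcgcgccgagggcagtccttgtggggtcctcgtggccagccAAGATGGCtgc
MRPL46: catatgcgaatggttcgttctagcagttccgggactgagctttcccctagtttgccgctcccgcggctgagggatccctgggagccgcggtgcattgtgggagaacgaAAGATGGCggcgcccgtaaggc
PTCD3: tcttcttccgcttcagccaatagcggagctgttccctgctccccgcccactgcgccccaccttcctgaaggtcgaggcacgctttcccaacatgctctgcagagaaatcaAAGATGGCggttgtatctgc
MRPL1: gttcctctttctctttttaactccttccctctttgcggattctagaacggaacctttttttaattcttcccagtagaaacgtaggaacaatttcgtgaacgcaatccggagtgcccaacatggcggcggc

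The main question of the design is how RNA levels differ in libraries labelled 3, 6 and 9 days after doxycycline removal. All 3 comparisons use the same doxycycline libraries of the deleted line. At day 3 few members differed. Of 83, 2 fell and 2 rose, when 6.87% of all 21615 genes tested fell and 6.50% rose (edgeR, adjusted p under 0.05, here and below). The median log2 fold change of the members was −0.04, and −0.002 over all genes. MRPL33, a large subunit protein with a bacterial counterpart, fell by 0.31 on the log2 scale (SE 0.09, adjusted p = 0.039), and MRPL24, also of the large subunit, by 0.19 (SE 0.06, adjusted p = 0.049). MRPS2 of the small subunit rose by 0.30 (SE 0.09, adjusted p = 0.027) and MRPS25 of the small subunit by 0.22 (SE 0.07, adjusted p = 0.041). Each of these 4 calls was lost when any of at least 4 of the 6 libraries was left out, and a count of 0 was left without day 3 replicate 1 or 3. MRPS12 (0.19, adjusted p = 0.40), DAP3 (−0.15, adjusted p = 0.10), PTCD3 (−0.08, adjusted p = 0.42), CHCHD1 (−0.07, adjusted p = 0.62), AURKAIP1 (0.04, adjusted p = 0.91) and GADD45GIP1 (−0.005, adjusted p = 0.99) did not pass at day 3. With only the compared groups fitted, DAP3 (−0.15, adjusted p = 0.028) and MRPS12 (0.20, adjusted p = 0.036) were called. DAP3 was also called lower with a trend on GC content and length removed (−0.16, adjusted p = 0.026). The summed level of all members lay at 6385 to 6598 CPM in libraries labelled day 3, inside the 6252 to 6904 CPM of the doxycycline libraries.

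At day 6 the genes of both subunits fell. Of 83 members, 63 fell and 0 rose, against 14.0% of all genes that fell and 14.0% that rose. The median change of the members was −0.34, and 0.01 over all genes. The remaining 20 members did not pass the test, and 77 of 83 had values below 0. In these bulk samples, less RNA in every cell and fewer cells with the RNA cannot be told apart. The summed level of the members was 5056 to 5403 CPM at day 6, below all 3 doxycycline libraries. Leaving out each of the 6 libraries in turn left 49 to 62 members called, and 47 of the 63 kept their call each time. With a trend on GC content and length removed, 43 members fell, 1 rose and the median was −0.27. With only the compared groups fitted, 71 members fell and 0 rose.

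The 2 subunits had similar shares of called genes at day 6. In the large subunit 41 of 52 genes fell (78.8%, median −0.34), and in the small subunit 21 of 30 (70.0%, median −0.36). MRPS36, outside both, also fell. Among genes with bacterial counterparts 38 of 46 fell (median −0.39), and among those specific to mitochondria 24 of 36 (median −0.31). The highest median fall by part of the ribosome was −0.51, for the 16 small subunit genes with bacterial counterparts. Members are not replicates of a condition, so no test between the parts is given. The summed CPM of the large subunit divided by that of the small was 1.45 to 1.48 at day 6 and 1.499 to 1.548 with doxycycline, and the groups did not overlap. In the parental line this ratio was 1.473 to 1.498 without and 1.503 to 1.534 with doxycycline, also without overlap.

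**Figure D1:**
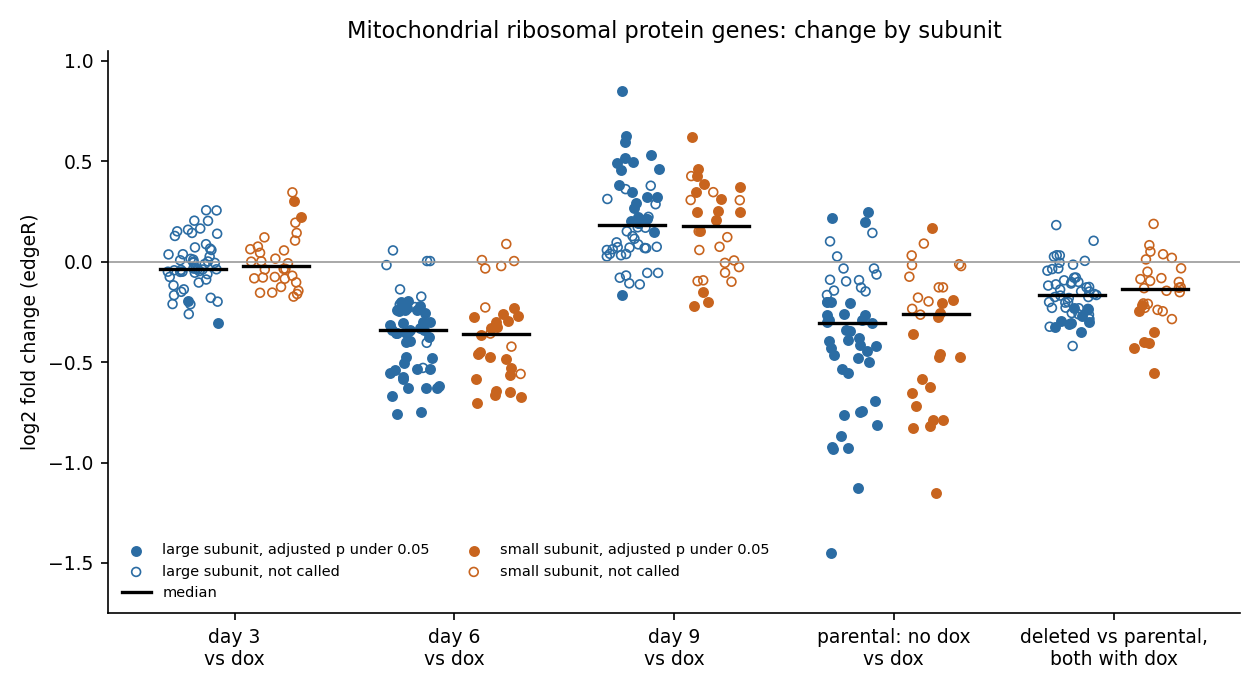
Log2 fold change of each member in 5 comparisons, with large subunit genes in blue and small subunit genes in orange. Filled points passed an adjusted p under 0.05, open points did not, and bars are medians. At day 6 the medians were −0.34 and −0.36, and at day 9 both were 0.18.

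MRPL1 (chromosome 4, 77862830 to 77952785, plus strand), a protein of the mobile L1 stalk of the large subunit, changed most. It was at 32.0, 32.5 and 45.1 CPM with doxycycline and at 26.7, 16.6 and 21.5 CPM at day 6. The day 6 libraries all lay below the doxycycline libraries, of which replicate 3 was highest. The change was −0.76 (SE 0.15, adjusted p = 0.00099). MRPL27 (chromosome 17, 50367867 to 50373184, minus strand), which reaches the peptidyl transferase centre, was at 29.97, 30.95 and 33.79 CPM with doxycycline and 20.8, 17.4 and 18.2 CPM at day 6 (−0.75, SE 0.08, adjusted p = 6.6e-06). The groups did not overlap, and the spread within each was small.

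Small subunit genes showed falls of like size. MRPS17 (chromosome 7, 55951877 to 55956500, plus strand), a protein that binds the small subunit RNA early, was at 33.1, 35.3 and 41.4 CPM with doxycycline and 26.2, 20.0 and 21.2 CPM at day 6 (−0.70, SE 0.11, adjusted p = 9.9e-05). MRPS7 (chromosome 17, 75261879 to 75266376, plus strand), of the small subunit head, was at 61.3, 58.1 and 69.3 CPM with doxycycline and 45.1, 33.6 and 39.7 CPM at day 6 (−0.67, SE 0.10, adjusted p = 8.9e-05). MRPL53, a large subunit protein specific to mitochondria, had a change of −0.67 (SE 0.08, adjusted p = 7.7e-06). All 3 genes had day 6 libraries below every doxycycline library.

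MRPS12 (chromosome 19, 38930944 to 38933168, plus strand) encodes the small subunit protein at the decoding site and is the direct neighbour of SARS2. It was at 41.4, 39.4 and 49.0 CPM with doxycycline and 31.0, 24.0 and 28.0 CPM at day 6, without overlap (−0.64, SE 0.14, adjusted p = 0.0025). CHCHD1 (chromosome 10, 73782048 to 73783652, plus strand), a small subunit protein specific to mitochondria, was at 44.6, 49.8 and 53.8 CPM with doxycycline and 31.2, 33.0 and 30.4 CPM at day 6 (−0.65, SE 0.08, adjusted p = 1.6e-05). The calls of MRPL1, MRPL27, MRPL53, MRPS7, MRPS12, MRPS17 and CHCHD1 at day 6 held under every alternative that was run.

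DAP3 and PTCD3 stayed near their doxycycline level at day 6. DAP3 (chromosome 1, 155687948 to 155739010, plus strand), the GTP-binding protein of the small subunit head, was at 103.5, 96.3 and 107.9 CPM with doxycycline and 105.7, 100 and 97.3 CPM at day 6 (−0.02, SE 0.06, adjusted p = 0.83). PTCD3 (chromosome 2, 86106235 to 86142157, plus strand), a pentatricopeptide repeat protein near the messenger RNA entry, was at 143.0, 141.8 and 144.8 CPM with doxycycline and 156.3, 147.1 and 153.1 CPM at day 6 (0.09, SE 0.06, adjusted p = 0.30). The DAP3 groups overlapped, whereas every PTCD3 library at day 6 lay above the doxycycline libraries, a difference that did not pass the main test. With library size alone PTCD3 was called higher (0.16, adjusted p = 0.037). GADD45GIP1, a large subunit protein at the exit tunnel, was at 171.7 to 211.7 CPM with doxycycline and 133.6 to 157.7 CPM at day 6 (−0.40, SE 0.18, adjusted p = 0.095). AURKAIP1 was at 149.9 to 167.7 CPM with doxycycline and 110.1 to 122.9 CPM at day 6 (−0.42, SE 0.18, adjusted p = 0.089). Their groups did not overlap and their values lay beyond the members' median, but neither passed the main test. Both were called lower with only the compared groups fitted (GADD45GIP1 adjusted p = 0.002, AURKAIP1 adjusted p = 0.00031) and with no low-count filter, and AURKAIP1 also with the GC and length trend removed (adjusted p = 0.00076).

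**Figure D2:**
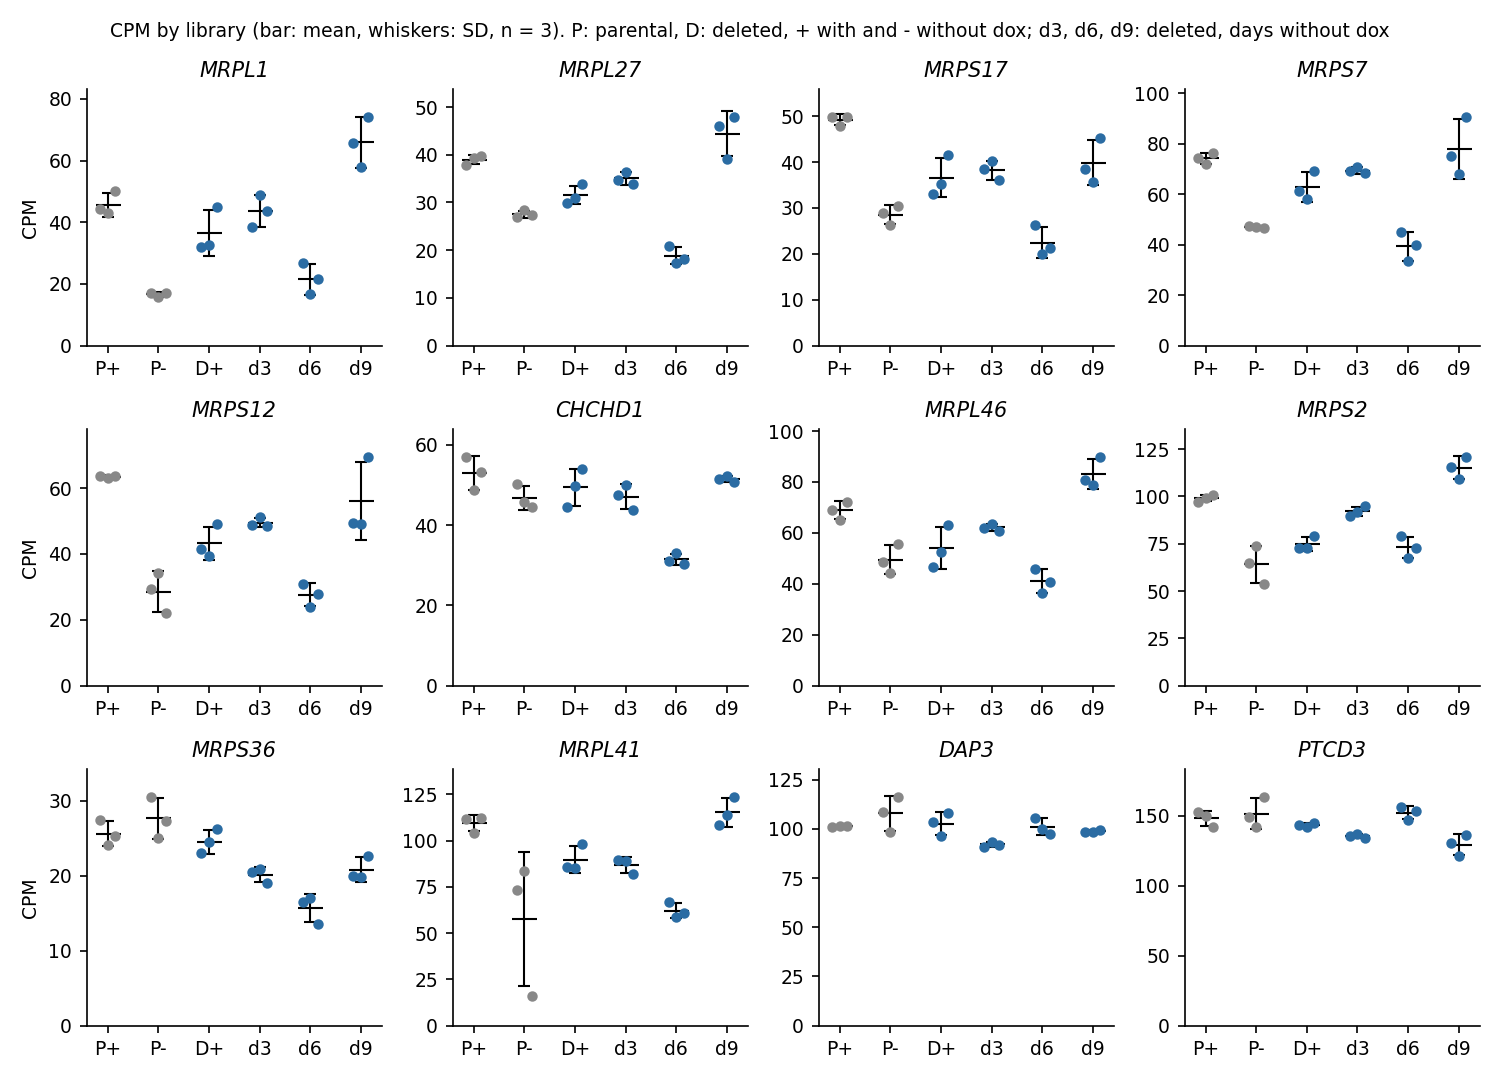
CPM of 12 members in each of the 18 libraries, with the group mean and SD (n = 3), in grey for the parental and blue for the deleted line. MRPL1, MRPL27, MRPS17, MRPS7 and MRPS12 were low in libraries labelled day 6 and in parental libraries without doxycycline, CHCHD1 and MRPS36 were lowest at day 6, and DAP3 stayed between 90.9 and 116.4 CPM.

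By day 9 the direction had turned. Of 83 members, 32 rose and 4 fell relative to doxycycline, while 22.6% of all genes rose and 23.8% fell. The members' median was 0.17, and −0.01 over all genes, with 66 of 83 values above 0. The large subunit had 20 of 52 genes up and 1 down, and the small subunit 12 of 30 up and 3 down, each with a median of 0.18. Without doxycycline replicate 2 the count of members called fell from 36 to 23, and 20 of the 36 kept their call whichever library was left out. Scaling by library size alone gave 21 up and 9 down, and the fit without day 9 replicate 3 gave 21 up and 8 down. Without doxycycline replicate 1 it was 21 up and 4 down, without replicate 2 it was 22 up and 1 down, and with the GC and length trend removed 28 rose and 7 fell. The count that fell was 1 without day 9 replicate 1 or 2 or doxycycline replicate 3, with no low-count filter, and with only the compared groups fitted.

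MRPL1 again showed the highest change at day 9. It was at 65.6, 57.9 and 74.3 CPM, above all doxycycline libraries (0.85, SE 0.15, adjusted p = 0.00011). MRPL46 (chromosome 15, 88459478 to 88467388, minus strand), a large subunit protein specific to mitochondria, was at 46.4, 52.6 and 62.9 CPM with doxycycline and 80.8, 79.0 and 90.0 CPM at day 9 (0.63, SE 0.10, adjusted p = 6.3e-05). MRPS2 (chromosome 9, 135499965 to 135504673, plus strand) was at 72.5, 72.8 and 79.0 CPM with doxycycline and 115.3, 109.0 and 121.1 CPM at day 9 (0.62, SE 0.09, adjusted p = 8.9e-06). None of these groups overlapped. MRPL15 (0.60, SE 0.11, adjusted p = 0.0002) and MRPL49 (0.53, SE 0.07, adjusted p = 4.6e-06), both of the large subunit, rose as well.

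The 4 members that fell at day 9 moved little. MRPS5, a small subunit protein with a bacterial counterpart, was at 165.4 to 170.2 CPM with doxycycline and 139.9 to 156.5 CPM at day 9 (−0.20, SE 0.06, adjusted p = 0.0097), a call that held under each alternative. PTCD3 was at 130.3, 121.1 and 135.9 CPM at day 9, below all doxycycline libraries (−0.15, SE 0.06, adjusted p = 0.047). MRPS6 (−0.22, SE 0.08, adjusted p = 0.038) and MRPL30 (−0.16, SE 0.07, adjusted p = 0.044) also passed, but these calls and that of PTCD3 were lost in 4 or 5 of 6 fits with a library left out. MRPS6 was at −0.004 (adjusted p = 0.97) with the length and span trend removed. GADD45GIP1 rose by 0.50 (SE 0.18, adjusted p = 0.027) and MRPS12 by 0.37 (SE 0.14, adjusted p = 0.038). The GADD45GIP1 call was lost in 4 of those 6 fits and the MRPS12 call in 3, with MRPS12 at 0.19 without day 9 replicate 3. Both calls were also lost with library size alone (adjusted p = 0.051 and 0.072) and with either trend removed. MRPS12 also lost its call with the replicate block and with only the compared groups fitted. AURKAIP1 was at 0.43 (SE 0.18, adjusted p = 0.061), CHCHD1 at 0.06 (SE 0.08, adjusted p = 0.59) and DAP3 at −0.06 (SE 0.06, adjusted p = 0.49). AURKAIP1 was called higher with only the compared groups fitted (adjusted p = 0.0012), with either trend removed, with no low-count filter and with DESeq2.

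Set directly against day 6, day 9 was higher for 75 of 83 members and lower for 2, when 28.6% of all genes were higher and 30.2% lower. The median difference was 0.56, and −0.02 over all genes. In the large subunit 49 of 52 were higher and 0 lower. In the small subunit 25 of 30 were higher, and the 2 lower members were MRPS5 (−0.20, SE 0.06, adjusted p = 0.0065) and PTCD3 (−0.24, SE 0.06, adjusted p = 0.0021). The MRPS5 call was lost without day 6 replicate 2 (−0.16). MRPL1 was 3.05-fold higher (1.61, SE 0.15, adjusted p = 3.7e-08), MRPL27 2.36-fold (1.24, SE 0.08, adjusted p = 8.8e-10), MRPL15 2.25-fold (1.17, SE 0.11, adjusted p = 4.3e-08), MRPL46 2.03-fold (1.02, SE 0.10, adjusted p = 9.9e-08) and MRPS12 2.03-fold (1.02, SE 0.14, adjusted p = 5.8e-06). GADD45GIP1 (0.90), AURKAIP1 (0.85) and CHCHD1 (0.71) were higher, and DAP3 was at −0.03 (adjusted p = 0.66). DAP3 was called lower with library size alone (−0.16, adjusted p = 0.026) and with the GC and length trend removed (−0.19, adjusted p = 0.0016).

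**Figure D3:**
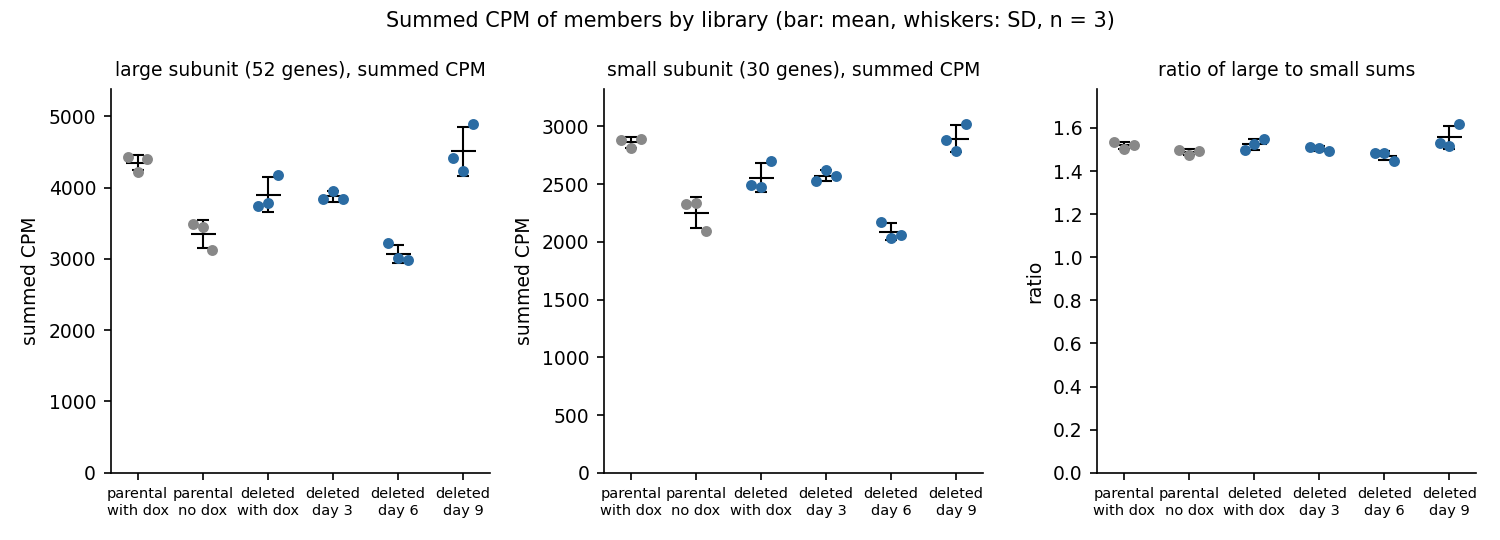
Summed CPM of the 52 large and the 30 small subunit genes, and their ratio, in each library, with the group mean and SD (n = 3). Both sums were lowest in libraries labelled day 6 and in parental libraries without doxycycline, and the ratio stayed between 1.45 and 1.62 in all 18 libraries.

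The parental line has no SARS2 transgene to switch off. Its groups are labelled by doxycycline only, and whether they differed in anything else, such as time in culture, is not given. Here 52 of 83 members were lower without doxycycline and 4 were higher, against 18.4% of all genes lower and 21.0% higher. The members' median was −0.29, and 0.03 over all genes. The large subunit had 35 of 52 lower and 3 higher (median −0.30), and the small subunit 17 of 30 lower and 1 higher (median −0.26). Genes with bacterial counterparts had a median of −0.35 and those specific to mitochondria −0.23. The summed level was 5252 to 5851 CPM without and 7057 to 7337 CPM with doxycycline, without overlap.

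MRPL1 was at 44.2, 42.9 and 50.1 CPM with doxycycline and 17.2, 15.7 and 17.1 CPM without it in the parental line, 2.74-fold lower (−1.45, SE 0.15, adjusted p = 1.2e-06). MRPS12 was at 63.8, 63.1 and 63.6 CPM with and 29.5, 34.3 and 21.9 CPM without doxycycline (−1.15, SE 0.14, adjusted p = 7.6e-06). MRPL12 (chromosome 17, 81703367 to 81707517, plus strand), the stalk protein that contacts translation factors, was at 117, 109.3 and 116.7 CPM with and 53.4, 66.5 and 37.4 CPM without it (−1.13, SE 0.13, adjusted p = 4.8e-06). None of the groups of these 3 genes overlapped. MRPL34 (−0.93, SE 0.16, adjusted p = 0.0002), MRPL20 (−0.93, SE 0.12, adjusted p = 1e-05), GADD45GIP1 (−0.87, SE 0.18, adjusted p = 0.00071) and AURKAIP1 (−0.83, SE 0.18, adjusted p = 0.0013) fell too. DAP3 (0.09, adjusted p = 0.26), PTCD3 (0.03, adjusted p = 0.71) and CHCHD1 (−0.18, adjusted p = 0.081) did not pass. DAP3 was called higher with the GC and length trend removed (0.15, adjusted p = 0.016), and CHCHD1 lower in some fits with a library left out.

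The 4 members higher without doxycycline were MRPL48 (0.25, SE 0.07, adjusted p = 0.011), MRPL42 (0.22, SE 0.06, adjusted p = 0.009) and MRPL10 (0.20, SE 0.07, adjusted p = 0.027) of the large and MRPS14 (0.17, SE 0.06, adjusted p = 0.038) of the small subunit. Each of these calls was lost without at least 1 library, in 1 of 6 such fits for MRPL42, 2 for MRPL48, 4 for MRPL10 and 5 for MRPS14. Removing the GC and length trend put MRPL42 at 0.06.

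The parental libraries without doxycycline disagreed in some of these genes, replicate 3 most. In replicate 2 without doxycycline, 5 members lay more than 1.5-fold above the mean of the other 2 libraries, a mean that includes replicate 3. Spearman's rho between this deviation and GC content was 0.77 in replicate 2 and −0.46 in replicate 3. In replicate 3 without doxycycline, 11 members lay more than 1.5-fold below the mean of the other 2 libraries, against 0 in each of the other parental libraries. The shares over all genes were not counted. The 11 members low in replicate 3 had a median GC content of 64.5%. MRPL41 was at 16.1 CPM there and at 73.3 and 83.6 CPM in its replicates, MRPS26 at 29.7 against 109.9 and 122.5 CPM, and AURKAIP1 at 55.4 against 117.9 and 132.5 CPM. Without this library 50 members were lower and 1 was higher, the median was −0.30, and the 50 were all among the 52. MRPL41 then changed by −0.48 in place of −0.92, and MRPS26 by −0.38 in place of −0.79. AURKAIP1 moved from −0.83 to −0.53 and GADD45GIP1 from −0.87 to −0.58, and both kept their calls. Whether GC content took part in this was not tested.

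**Figure D4:**
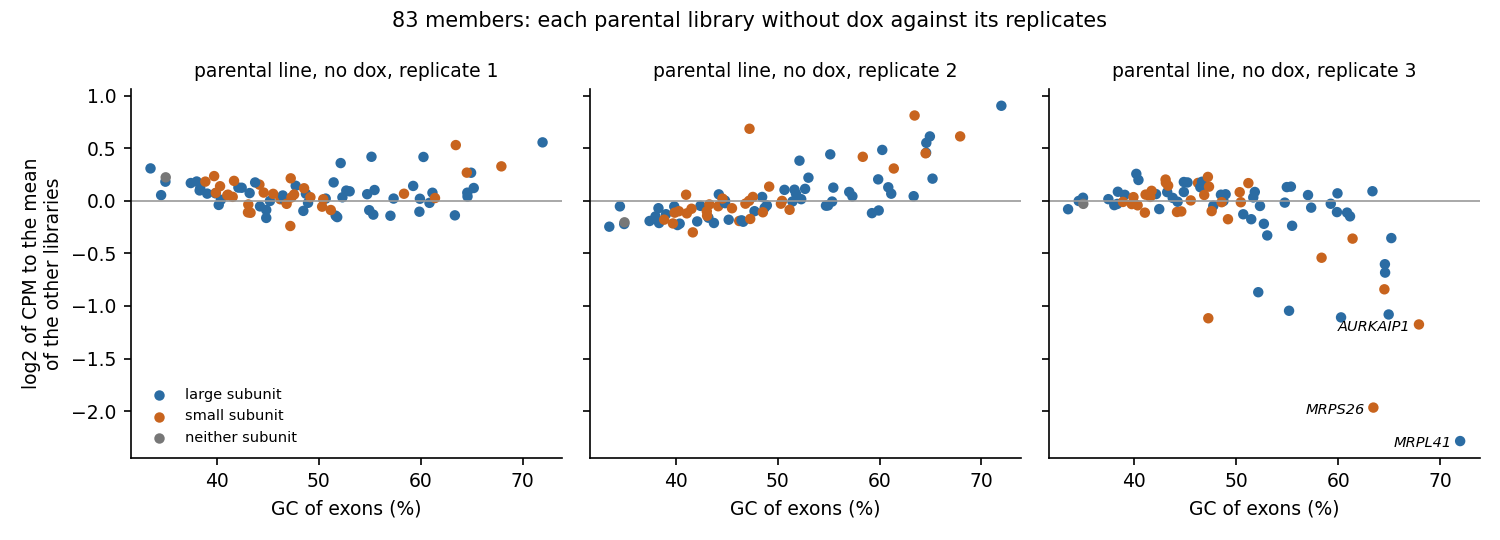
Log2 of each member's CPM in 1 parental library without doxycycline over the mean of the other 2. The horizontal axis, labelled GC of exons, is the GC percentage of the gene's longest GENCODE transcript. Large subunit genes are blue, small subunit genes orange and MRPS36 grey. In replicate 3 the GC-rich genes MRPL41, MRPS26 and AURKAIP1 lie far below their replicates.

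The day 6 and the parental comparisons share no library, so their members can be set side by side. Of the 63 members lower at day 6, 42 (66.7%) were also lower in the parental line, and these are 80.8% of the 52 lower there. Over all 83 members the shares were 62.7% lower in the parental line and 75.9% lower at day 6, so the overlap lay near them. The overlap over all genes was not counted. The 42 comprised 30 large and 12 small subunit genes, with medians of −0.43 at day 6 and −0.42 in the parental line. Across the 83 members the paired changes had a Pearson r of 0.52 and a Spearman rho of 0.51 (0.58 and 0.55 without parental replicate 3), given as a description because genes are not independent replicates. Another 21 members passed the test as lower at day 6 and not in the parental line, 10 in the parental line and not at day 6, and 10 in neither. These sets rest on which side of the threshold a gene fell and do not show that its changes differed. The difference itself was called for 9 of the 21, with medians of −0.33 at day 6 and −0.10 in the parental line. It was called for 1 of the 10 that passed in the parental line and not at day 6, with medians of −0.30 and −0.80, and for 3 of the 42. The 10 of the parental line, AURKAIP1, GADD45GIP1, MRPL34, MRPL38, MRPL4, MRPL41, MRPS2, MRPS24, MRPS26 and MRPS34, had a median GC content of 64.0% and a median gene span of 3532 bases. All of these but MRPS2 were among the 11 members that lay low in parental replicate 3 without doxycycline. Without that library MRPS24 lost its parental call (−0.53, adjusted p = 0.093), and the other members of this set kept theirs. How far the missing day 6 calls of this set, and its GC content, rest on that library was not tested. The 21 that passed at day 6 and not in the parental line had 42.1% and 14362 bases, and the 42 called in both 50.4% and 8232 bases. The 10 called in neither, DAP3, PTCD3, MRPL2, MRPL10, MRPL19, MRPL42, MRPL45, MRPS5, MRPS30 and MRPS35, had 44.7% and 30983 bases. Over all genes tested the medians were 48.7% and 18693 bases.

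GC content and span moved with some of the changes, and their part in them was not tested. Spearman's rho between change and GC content across the 83 members was −0.53 in the parental line (−0.46 without replicate 3), −0.05 at day 6 and 0.29 at day 9, and with gene span 0.50, 0.28 and −0.28. With both GC and length trends removed, the members' medians were −0.27 at day 6, −0.21 in the parental line and 0.13 at day 9, and with length and span trends removed −0.26, −0.23 and 0.13. Promoter cores were counted in the same sets, with no test between them. The ETS core was present for 17 of 38 members with a promoter in the table that were lower in both, 10 of 18 called at day 6 and not in the parental line, 4 of 10 called in the parental line and not at day 6, and 0 of 8 in neither. The YY1 core was present for 13, 3, 3 and 4 of them. Members with an ETS core had a median day 6 change of −0.36 (27 of 31 lower) and those without it −0.30 (29 of 43 lower).

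**Figure D5:**
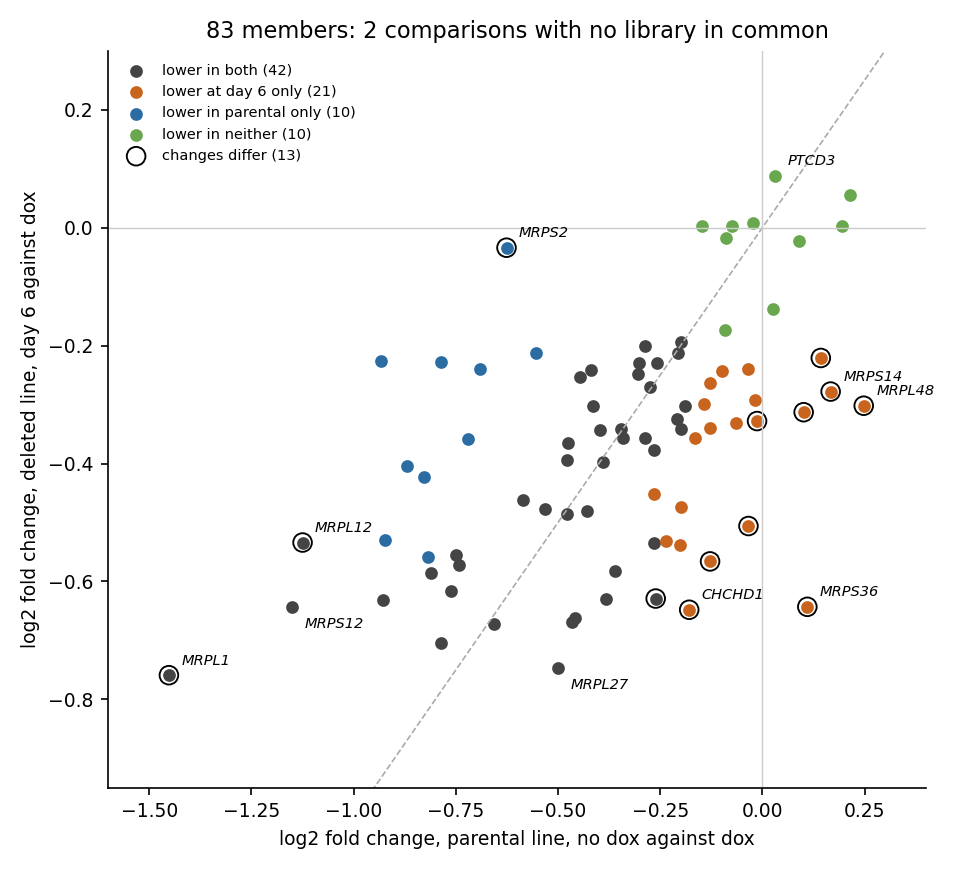
Log2 fold change of the 83 members at day 6 (vertical) against that in the parental line without doxycycline (horizontal), coloured by where each was called lower, with the dashed line marking equal change. Circles mark the 13 members whose changes differed between the lines, with MRPL1, MRPL12 and MRPS2 above and MRPS36, MRPL48, CHCHD1 and MRPS14 below the line.

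Whether the deleted line changed more than the parental line was tested as the difference between the changes. At day 6 this difference was called lower for 10 members and higher for 3, when 7.14% of all genes were lower and 5.49% higher. Its median over the members was −0.01. A fall greater in the deleted line was called for MRPS36 (−0.75, SE 0.14, adjusted p = 0.0023), MRPL48 (−0.55, SE 0.10, adjusted p = 0.0027), MRPL33 (−0.47, SE 0.13, adjusted p = 0.026), CHCHD1 (−0.47, SE 0.11, adjusted p = 0.011) and MRPS14 (−0.44, SE 0.09, adjusted p = 0.0035). MRPS36 (chromosome 5, 69217760 to 69230158, plus strand) was at 23.0, 24.5 and 26.2 CPM with doxycycline and 16.5, 17.0 and 13.6 CPM at day 6 in the deleted line. In the parental line it was at 27.5, 24.1 and 25.3 CPM with and 30.6, 25.1 and 27.3 CPM without doxycycline. Its groups overlapped in the parental line and not in the deleted line. MRPL48 (chromosome 11, 73787874 to 73865133, plus strand) was at 33.6, 35.1 and 36.3 CPM with doxycycline and 30.4, 26.7 and 28.1 CPM at day 6, while in the parental line it was higher without doxycycline.

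The 3 members with a fall smaller in the deleted line at day 6 were MRPL1 (0.69, SE 0.21, adjusted p = 0.037), MRPS2 (0.59, SE 0.12, adjusted p = 0.0042) and MRPL12 (0.59, SE 0.19, adjusted p = 0.044). MRPS2 was at 78.9, 67.7 and 72.6 CPM at day 6, overlapping its doxycycline libraries, and at 97.3, 99.1 and 100.5 CPM with and 64.9, 73.6 and 54.0 CPM without doxycycline in the parental line. The calls of MRPS36, MRPL48, CHCHD1, MRPS14 and MRPS2 held under all alternatives, whereas MRPL1 lost its call in 9 and MRPL12 in 8 of 12 fits with a library left out. MRPL33 lost its call in 6 of those 12. Leaving out day 6 replicate 1 or 3 or parental doxycycline replicate 2 or 3 left 7 or 8 of the 13 calls in number. MRPS12 (0.51, SE 0.20, adjusted p = 0.11), GADD45GIP1 (0.46, SE 0.25, adjusted p = 0.23), AURKAIP1 (0.41, SE 0.26, adjusted p = 0.32), DAP3 (−0.11, SE 0.09, adjusted p = 0.43) and PTCD3 (0.06, SE 0.08, adjusted p = 0.71) did not pass. With no low-count filter, MRPS12 (adjusted p = 0.0021), GADD45GIP1 (adjusted p = 0.00056) and AURKAIP1 (adjusted p = 0.0044) passed as higher.

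At days 3 and 9 most of the called differences were above 0. The day 3 change minus the parental change was called higher for 38 members and lower for 8, against 18.6% and 20.9% of all genes, with a median of 0.26. The day 9 difference was called higher for 57 and lower for 2, against 24.4% and 27.3%, with a median of 0.48. MRPL1 had the highest difference at both times, 1.71 at day 3 (SE 0.21, adjusted p = 6.5e-06) and 2.304 at day 9 (SE 0.21, adjusted p = 6.3e-08), followed by MRPS12 at 1.35 (SE 0.20, adjusted p = 4.5e-05) and 1.52 (SE 0.20, adjusted p = 4.2e-06). MRPS36 was lower at both, at −0.40 (SE 0.14, adjusted p = 0.028) and −0.35 (SE 0.14, adjusted p = 0.041), and lost each call in 7 of 12 fits with a library left out. Besides MRPS36, the members lower at day 3 were MRPL10 (−0.36), MRPL22 (−0.35), MRPL48 (−0.32), MRPL39 (−0.30), MRPL42 (−0.28), MRPS14 (−0.27) and DAP3 (−0.24, SE 0.09, adjusted p = 0.031). Over 12 such fits DAP3 lost its call in 9, MRPL39 in 6, MRPS14 in 3 and MRPL42 and MRPL48 in 2 each. Removing the GC and length trend put MRPL42 at −0.10 (adjusted p = 0.39). The 8 members lower at day 3 became 4 with the length and span trend removed and 3 with no low-count filter, and 3 to 8 over the fits with a library left out, with 3 without parental replicate 1 lacking doxycycline and 4 without day 3 replicate 1 or 3 or parental doxycycline replicate 2, and 5 without replicate 3 of either doxycycline group. MRPS14 was also lower at day 9 (−0.27, SE 0.09, adjusted p = 0.016). GADD45GIP1 was higher at day 3 (0.86, SE 0.25, adjusted p = 0.0096) and at day 9 (1.36, SE 0.25, adjusted p = 0.00014), and AURKAIP1 likewise (0.87, SE 0.26, adjusted p = 0.011 and 1.25, SE 0.26, adjusted p = 0.00041). Without parental replicate 3 lacking doxycycline, AURKAIP1 was at 0.58 and 0.96 and GADD45GIP1 at 0.58 and 1.08, and all 4 calls held. PTCD3 and CHCHD1 passed at neither time in the main fit. With library size alone, PTCD3 (−0.29, adjusted p = 0.0039) and DAP3 (−0.25, adjusted p = 0.017) were called lower at day 9. With the GC and length trend removed, CHCHD1 was called higher (0.25, adjusted p = 0.024) and DAP3 lower (−0.26, adjusted p = 0.003) at day 9. PTCD3 and CHCHD1 were also called at day 9 in some fits with a library left out. All 3 differences share the parental libraries and the doxycycline libraries of the deleted line. The parental labels give no time without doxycycline, so the parental change could not be matched to any of the 3 days.

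With doxycycline present in both, the deleted line had lower levels than the parental line for 16 of 83 members and higher levels for 0, when 9.97% of all genes were lower and 9.32% higher. The members' median was −0.15, and 0.01 over all genes, with 71 of 83 values below 0. The large subunit had 9 of 52 lower and the small subunit 7 of 30. MRPS12, beside the deleted locus, was lowest at −0.55 (SE 0.14, adjusted p = 0.01), from 63.1 to 63.8 CPM in the parental to 39.4 to 49.0 CPM in the deleted line. MRPS17 (−0.43, SE 0.11, adjusted p = 0.0076), MRPS2 (−0.40, SE 0.09, adjusted p = 0.0024), MRPS34 (−0.40, SE 0.14, adjusted p = 0.049) and MRPL46 (−0.35, SE 0.10, adjusted p = 0.021) were lower too. AURKAIP1 (−0.21, adjusted p = 0.46), GADD45GIP1 (−0.20, adjusted p = 0.47), CHCHD1 (−0.10, adjusted p = 0.42), PTCD3 (−0.05, adjusted p = 0.62) and DAP3 (0.02, adjusted p = 0.87) did not pass. With only the compared groups fitted, AURKAIP1 (adjusted p = 0.0032) and GADD45GIP1 (adjusted p = 0.018) passed. AURKAIP1 also passed with the GC and length trend removed (−0.39, adjusted p = 0.00092) and with no low-count filter. Of the 5 named as lower, MRPS2 alone kept its call under each alternative. MRPS12 lost it without doxycycline replicate 2 of the deleted line (−0.49) and MRPS17 without its replicate 1 (−0.36), MRPL46 lost it in 4 and MRPS34 in 6 of 6 fits with a library left out, and the count fell to 7 or 8 without replicate 1 or 2 of the deleted line or replicate 3 of the parental line. Whether the deletion next to MRPS12 bears on its level was not tested.

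Genes that build and serve the mitochondrial ribosome were followed as lists. Over all genes tested, 14.0% fell and 14.0% rose at day 6, 23.8% fell and 22.6% rose at day 9, and 18.4% were lower and 21.0% higher in the parental line without doxycycline. Of 30 assembly factors that passed the filter, 16 fell and 0 rose at day 6 (median −0.26), 19 rose and 4 fell at day 9 (median 0.38), and 17 were lower and 2 higher in the parental line without doxycycline (median −0.27). DDX28, a helicase for large subunit assembly, fell by 0.79 (SE 0.18, adjusted p = 0.0027) and MTG1, a GTPase for large subunit assembly, by 0.66 (SE 0.13, adjusted p = 0.001) at day 6. MTG1 was at 32.1, 34.9 and 43.8 CPM with doxycycline, 27.8, 18.4 and 24.1 CPM at day 6 and 113.9, 102.5 and 91.0 CPM at day 9, a rise of 1.47 (SE 0.13, adjusted p = 6.8e-08). In the parental line without doxycycline MTG1 changed by −1.16 (SE 0.13, adjusted p = 2.7e-06) and DDX28 by −1.09 (SE 0.18, adjusted p = 8.3e-05). Of the same list, MRM2, which methylates large subunit RNA, rose by 0.72 at day 9 (SE 0.09, adjusted p = 1.6e-06), while NOA1, a mitochondrial GTPase, fell by 0.49 (SE 0.08, adjusted p = 8.5e-05) and METTL15, which methylates small subunit RNA, by 0.43 (SE 0.07, adjusted p = 0.00012).

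Of 18 translation factors, 7 fell and 0 rose at day 6 (median −0.14), 3 rose and 3 fell at day 9 (16.7% each way, below the shares over all genes, median 0.02), and 10 were lower and 1 higher in the parental line without doxycycline (median −0.25). At day 6 SLIRP, which holds mitochondrial messenger RNA with LRPPRC, fell by 0.63 (SE 0.12, adjusted p = 0.00068) and the release factor MTRF1 by 0.43 (SE 0.10, adjusted p = 0.0034). At day 9 the release factor MTRF1L rose by 0.81 (SE 0.10, adjusted p = 2.3e-06) and the ribosome recycling factor MRRF fell by 0.35 (SE 0.10, adjusted p = 0.0065). For comparison, of 86 cytosolic ribosomal protein genes tested, 77 fell and 0 rose at day 6 (median −0.38), 5 rose (5.8%) and 19 fell (22.1%) at day 9 (median −0.10), and 5 were higher (5.8%) and 14 lower (16.3%) in the parental line without doxycycline (median 0.02). The day 9 and parental shares of these genes were below those over all genes. In the difference between the day 6 and the parental change, 49 of these 86 were lower and 1 higher (median −0.35), against 7.14% and 5.49% of all genes, where the mitochondrial ribosomal members had 10 and 3 (median −0.01).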

How the data were processed

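RNA was measured by 151-bp paired-end sequencing in 18 libraries. The 3 deposited tables hold raw counts of reads by gene with no normalization, as their headers and whole-number values show. GRCh38 is the build in the submitters' processing notes, which list featureCounts, Subread, HISAT2, SAMtools, cutadapt 2.3 and DESeq2. The sources used here do not give the annotation release or strand setting for counting, so reads of members that overlap other genes are uncertain. Genes broken over several lines (16) were rejoined, and the 6 libraries held in more than 1 table were identical and used a single time. The 37 genes of mitochondrial DNA had 0 counts in all libraries.

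The test was edgeR 4.0.16 (R 4.3.3): filterByExpr by group, TMM scaling, and a quasi-likelihood fit with 1 mean per group over all 18 libraries, adjusted by Benjamini-Hochberg over 21615 genes and called under 0.05. The standard error is that of the log2 fold change. CPM was computed from the deposited counts, with each library total multiplied by its TMM factor (0.91 to 1.06). Summed CPM therefore differs from the members' share of the raw library totals. GC content is that of the longest GENCODE transcript under each symbol, whereas exon lengths and spans come from the deposited gene coordinates. The alternatives were DESeq2 1.42.0 and its size factors, library size alone, no low-count filter, only the compared groups, a replicate block, trends on length with span or GC removed (16923 genes with GC), each library left out, and members without overlapping exons. Nothing in the labels says that replicates were separate cultures, so p-values measure only how far these samples spread, which may be technical. Members, subunit assignments and gene lists were chosen with earlier results of these data known. Named for each comparison were the 5 largest called changes in each direction, members called against the majority, and MRPS12, DAP3, PTCD3, GADD45GIP1, AURKAIP1 and CHCHD1, with the 3 highest and 3 lowest per kilobase. MRPL41, MRPS26, the members listed by where they were called, and the levels of MTG1 were added after their values were seen.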

Additional observations from a re-analysis of the deposited data

Results flagged for a closer look

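Results were flagged where a member's change differed between the deleted and the parental line by the test of the difference itself, on the log2 scale. At day 3 such a difference was called for 46 members, at day 6 for 13 and at day 9 for 59.

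For day 3, the lowest differences were those of MRPS36 (−0.397), MRPL10 (−0.362), MRPL22 (−0.355), MRPL48 (−0.324) and MRPL39 (−0.30). The highest were those of MRPL1 (1.707), MRPS12 (1.345), MRPS24 (1.164), MRPL12 (1.162) and MRPL20 (1.13). For day 6, the lowest were MRPS36 (−0.752), MRPL48 (−0.55), MRPL33 (−0.472), CHCHD1 (−0.469) and MRPS14 (−0.445), and those called higher were MRPL1 (0.693), MRPS2 (0.592) and MRPL12 (0.592). For day 9, MRPS36 (−0.346) and MRPS14 (−0.265) were lower, and MRPL1 (2.304), MRPS12 (1.525), GADD45GIP1 (1.364), MRPL15 (1.34) and MRPL34 (1.31) were highest. MRPS24 overlaps a readthrough gene on the same strand. Groups of 3 libraries are too small for the check for single outlying samples.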

How the results depend on the processing

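Among all alternatives run, no named member turned its direction with a call. Outside fits that leave out a library, the count of members called stayed within 1.5 times the main count, with the following exceptions. At day 3 (4 called) it was 2 with the replicate block, 12 with the GC and length trend removed, 21 with only the compared groups fitted and 1 among members without overlapping exons. For the deleted against the parental line with doxycycline (16 called) it was 26 with no low-count filter, 27 with the GC and length trend removed and 47 with only the compared groups. For the day 6 change minus the parental change (13 called) it was 21 with no low-count filter. Counts by direction moved more: the calls above 0 in that difference rose from 3 to 12 with no low-count filter, those below 0 in the day 9 difference went from 2 to 6 with library size alone and 0 with no low-count filter, and those at day 9 are given with the result. Restricting to the 55 members without overlapping exons left 23 called at day 9, 50 for day 9 against day 6, 33 in the parental line, and 29 and 37 for the day 3 and day 9 differences from the parental change. With each library left out in turn, counts ranged from 0 to 4 at day 3, 23 to 37 at day 9, 7 to 22 for the deleted against the parental line and 7 to 16 for the day 6 difference. Replicate numbers did not pair the libraries: of 45 pairs with the same number, 0 had correlated deviations over 0.1 (−0.077 to 0.07). Calls kept under every alternative numbered 37 of 63 at day 6, 17 of 36 at day 9 and 38 of 56 in the parental line.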
